A study of Caenorhabditis elegans with 2 samples.

Results

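The genes described here are the 5 enzymes of the propionate shunt of Caenorhabditis elegans (acdh-1, ech-6, hach-1, hphd-1 and alh-8) and 3 nuclear hormone receptor genes tied to it or to the neighbouring methionine cycle (nhr-10, nhr-68 and nhr-114). They were taken by name from the gene annotation and make up 8 of 19985 protein-coding genes. For each, every summit of NHR-102 binding was collected from 5 kb upstream of the outermost annotated 5' end to the end of the gene. NHR-102 is itself a nuclear hormone receptor.

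Binding was measured by ChIP-seq, the sequencing of DNA that an antibody pulls down with a protein. The strain was OP463. Labels differ on the antibody: the description gives one raised against green fluorescent protein and the antibody label gives nhr-102. The former is followed here. This strain carries the allele unc-119(tm4063) on chromosome III and the transgene wgIs463, from which NHR-102 is made with a C-terminal GFP-FLAG tag. Whole hermaphrodites were collected as L4 larvae, 50 h after synchronization by starvation of the L1 larvae, in 2 biological replicates that form 1 group. The promoter that drives the transgene is not given in the sources used here, and an untagged strain was not analysed here, so a peak made by the tagged protein and one found in any such preparation cannot be told apart. Since whole animals were used, the tissue of a peak is unknown.

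The shunt breaks propionyl-CoA down to acetyl-CoA without vitamin B12, and the worm turns it on when the vitamin is scarce and the B12-dependent route through propionyl-CoA carboxylase and methylmalonyl-CoA mutase cannot run. Its genes are known to be switched on by NHR-10 and NHR-68, of which NHR-10 acts on nhr-68, so that the pair forms a feed-forward loop that answers lasting propionate. NHR-114 activates genes of the methionine cycle, which also needs B12 and supplies S-adenosylmethionine (SAM). Much of this metabolism takes place in the gut and the epidermis.

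Peaks came as 1 list per replicate, 1 list of the pooled replicates and an optimal list of 2796 peaks that passed the irreproducible discovery rate (IDR), called IDR peaks below. The replicate and pooled lists held 30000 peaks each. Signal is the authors' own strength of a peak, without a unit and comparable within a list only, and rank 1 is the strongest peak of a list. The 2796 IDR summits were the 2796 strongest of the pooled list, so a rank is the same in both, and their signal ran from 90.5 over a median of 142.9 to 4514. The promoter window of a gene spans the 1000 bp before and the 200 bp after any 5' end annotated for a coding transcript. Positions are from 1 in the build WBcel235 (ce11), and distances are from the outermost 5' end, negative upstream.

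Sequences under the promoter summits are shown for the short elements they hold. Within 150 bp, AGTTCA was at 5 of the 12 IDR summits in the 8 regions and in 15.5% of all nuclear IDR windows. TGATAA and GAGAGA were at 5 of the 12 as well, and in 36.5 and 37.4% of IDR windows. The RefSeq assembly of WBcel235 was read on the strand of each gene, 5' to 3', within 100 bp of the summit and trimmed at annotated untranslated regions. Capitals mark exact matches on either strand. The elements marked are AGTTCA, a hexamer of the kind nuclear receptors bind; TGATAA, the site of GATA factors; CACGTG, the E-box; and the repeat GAGAGA. The following 4 windows hold AGTTCA.
ech-6, chrIII:9753008-9753208, minus strand: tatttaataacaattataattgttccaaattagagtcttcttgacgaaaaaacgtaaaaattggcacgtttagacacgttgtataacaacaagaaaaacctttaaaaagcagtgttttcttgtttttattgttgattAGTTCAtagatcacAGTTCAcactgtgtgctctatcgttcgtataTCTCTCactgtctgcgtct
alh-8, chrII:11728765-11728965, plus strand: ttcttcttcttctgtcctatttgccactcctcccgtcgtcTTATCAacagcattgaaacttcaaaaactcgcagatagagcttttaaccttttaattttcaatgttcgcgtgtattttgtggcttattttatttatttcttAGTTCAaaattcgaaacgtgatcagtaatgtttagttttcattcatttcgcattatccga
nhr-68, strong summit, chrV:11572991-11573139, plus strand: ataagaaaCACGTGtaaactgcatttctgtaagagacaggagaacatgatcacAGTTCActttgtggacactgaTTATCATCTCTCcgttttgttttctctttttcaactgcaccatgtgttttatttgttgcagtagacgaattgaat
nhr-68, weak summit, chrV:11573140-11573340, plus strand: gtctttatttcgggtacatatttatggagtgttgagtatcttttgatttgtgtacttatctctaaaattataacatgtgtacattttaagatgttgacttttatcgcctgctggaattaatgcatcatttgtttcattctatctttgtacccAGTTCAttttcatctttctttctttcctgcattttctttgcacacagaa

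The ech-6 window held AGTTCA 2 times, with centres 39.5 and 53.5 bp downstream of the summit. In nhr-68 the centre lay 7.5 bp from the strong summit and 54.5 bp from the weak one, and in alh-8 it lay 43.5 bp from the summit. The ech-6 window and that of the strong nhr-68 summit shared the 13-base run gatcacAGTTCAc, on the same strand relative to both genes. Of the 2773 nuclear IDR windows of 301 bp, only the 2 from which this run was read held it, and the nuclear genome held 8 copies of it. A shared run of that length was not confined to this pair. Among 59 pairs of windows from different genes the longest shared run had a median of 10 bases, and 2 pairs reached 13, the other being an AT-rich run of acdh-1 and hphd-1. That AT-rich run was in 3 nuclear IDR windows and had 55 copies in the nuclear genome.

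The 3 promoter summits without AGTTCA are given for comparison. They belong to hach-1, hphd-1 and nhr-114.
hach-1, chrIII:5555045-5555245, plus strand: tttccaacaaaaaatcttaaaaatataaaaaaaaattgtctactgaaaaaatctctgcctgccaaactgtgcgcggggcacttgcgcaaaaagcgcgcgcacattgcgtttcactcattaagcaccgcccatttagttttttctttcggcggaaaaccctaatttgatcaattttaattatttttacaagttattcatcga
hphd-1, chrII:12996384-12996508, minus strand: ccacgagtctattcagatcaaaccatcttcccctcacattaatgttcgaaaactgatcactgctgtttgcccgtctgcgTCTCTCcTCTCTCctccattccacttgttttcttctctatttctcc
nhr-114, chrV:4186586-4186786, plus strand: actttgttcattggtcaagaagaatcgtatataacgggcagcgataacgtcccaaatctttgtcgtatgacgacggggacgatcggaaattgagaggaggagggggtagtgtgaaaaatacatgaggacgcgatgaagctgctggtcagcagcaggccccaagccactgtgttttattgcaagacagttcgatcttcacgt

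Of these 3, hphd-1 had a pair of GAGAGA matches, on the other strand, within 20 bp of the summit. An E-box at 26.5 bp and a GATA site at 46.5 bp lay in the trimmed stretch, which is not printed. The windows of hach-1 and nhr-114 held none of the marked elements.

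NHR-102 had an IDR summit in a promoter window of 7 of the 8 genes (87.5%, exact Clopper-Pearson 95% interval 47.3 to 99.7%, counting error only). Over all protein-coding genes the share was 8.95%. The same 7 genes had an IDR summit in the wider region, which held one in 18.7% of all protein-coding genes. All 5 enzymes were among them, with 2 of the 3 receptors. The gene without an IDR summit was nhr-10. The members were chosen with earlier results of these data known, so their count describes these genes and was not tested.

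The strongest promoter signal of the 7 genes had a median of 139.3, against 150.5 for all genes with an IDR promoter summit. Of the 7, only acdh-1, hach-1 and nhr-68 had a promoter summit among the 1398 strongest IDR peaks, where 4.86% of all protein-coding genes had one. The highest signal was in the promoter window of nhr-68, 3.47 times the next, that of hach-1. The 5' ends nearest to these summits belong to H12C20.7 and nmad-1. With summits given to the nearest 5' end alone, nhr-68 kept a promoter summit of 94.6, the lowest, and hach-1 kept none. Counting every window that holds a summit, the range from hach-1 to alh-8, the weakest, was 1.78-fold. This order is that of the pooled list. In replicate 1, hach-1 (rank 2496) and acdh-1 (rank 2624) stood below ech-6, hphd-1 and alh-8.

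**Figure D1:**
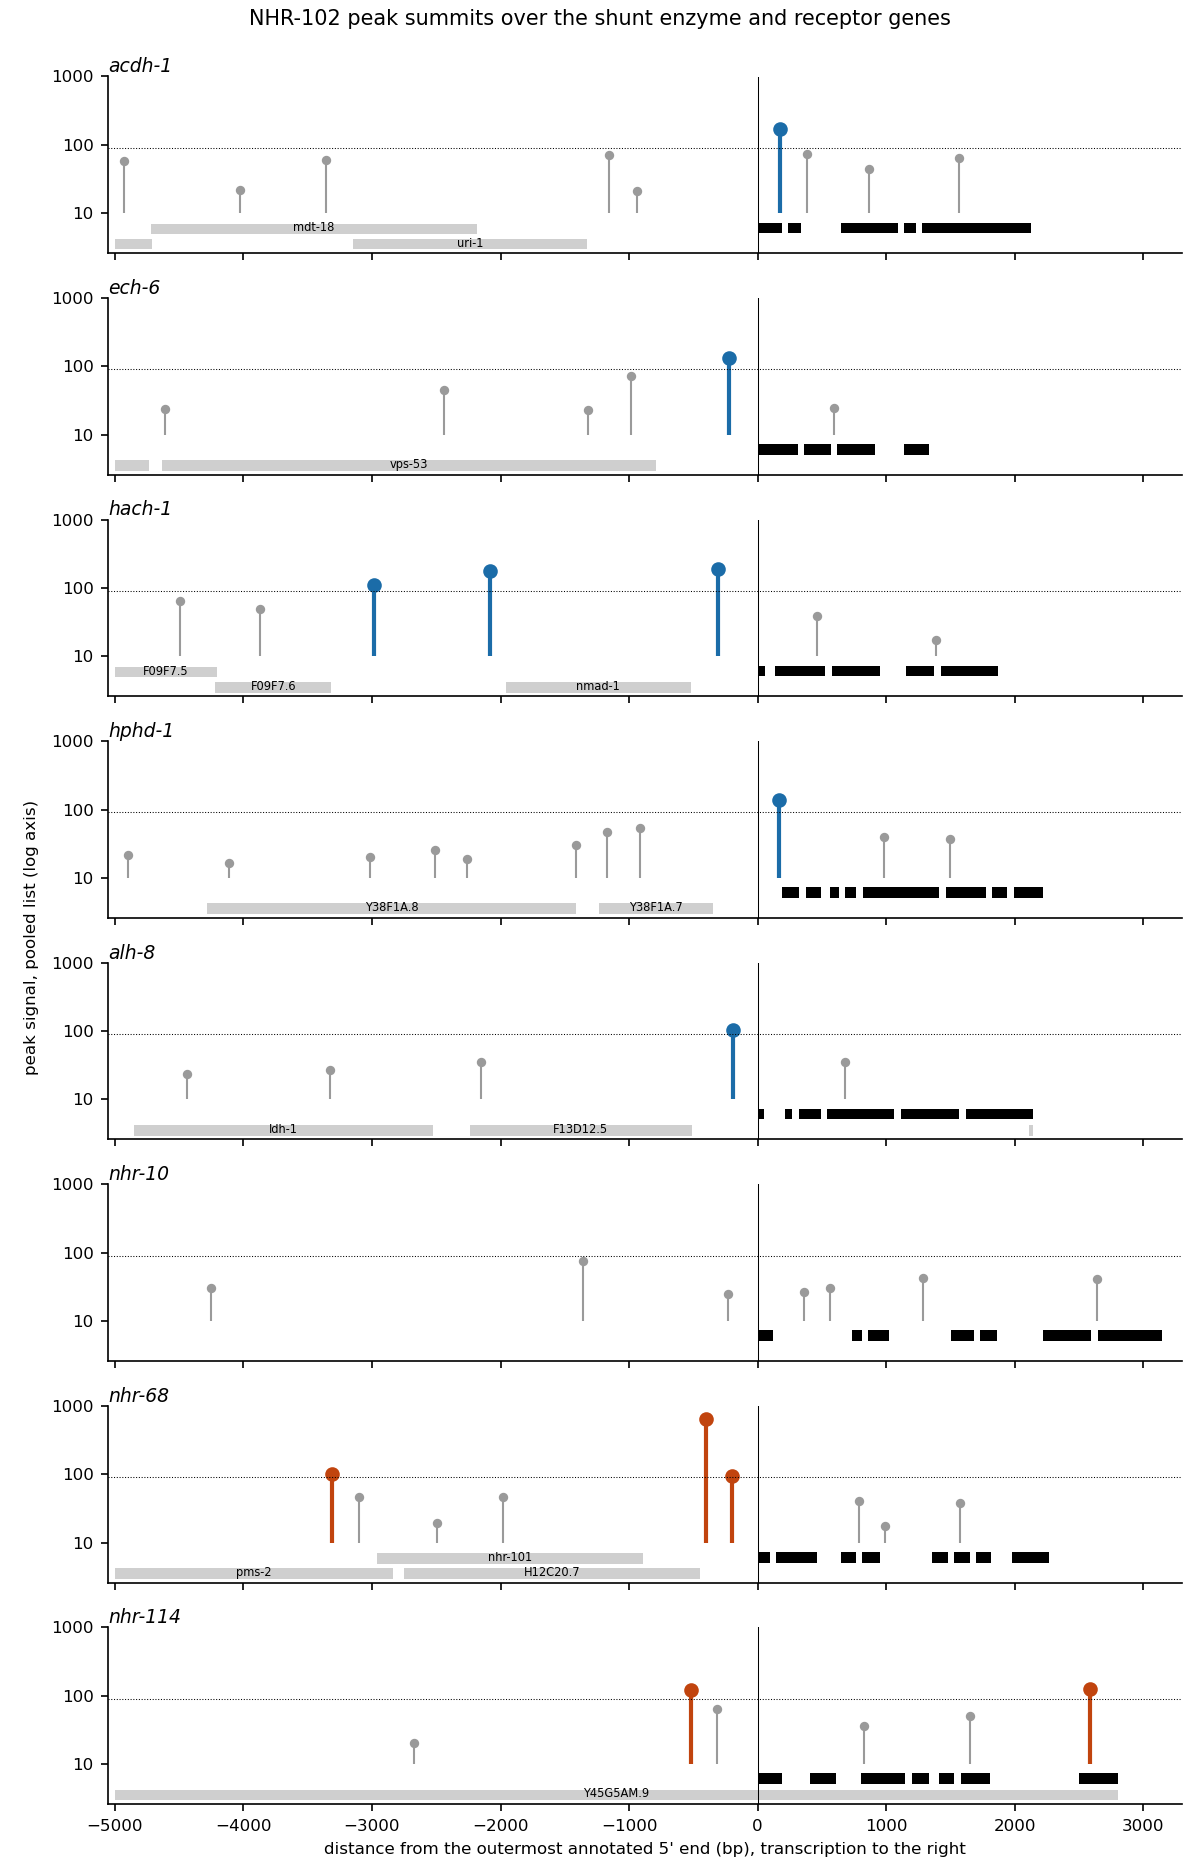
Summits of the pooled list over each gene, by distance from the outermost 5' end in bp (horizontal) and signal on a log axis (vertical). Large coloured points are IDR summits (enzymes blue, receptors red), small grey points the other pooled summits, black boxes the gene's exons, grey boxes neighbouring genes, and the dotted line the lowest IDR signal of 90.5; nhr-10 has no point above the line.

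acdh-1 encodes the acyl-CoA dehydrogenase that opens the shunt by oxidising propionyl-CoA to acrylyl-CoA, and its promoter is widely used as a sensor of vitamin B12. The gene lies on chromosome I from 6497436 to 6499560 on the plus strand, 1326 bp downstream of uri-1. Its only IDR summit lay inside the gene, in a coding exon at 174 bp, in a peak from 6497455 to 6497924. The signal was 172.5 (rank 1037) in the pooled list, 54.0 (rank 2624) in replicate 1 and 116.7 (rank 617) in replicate 2. The replicates placed their summits at 208 and 172 bp. The peak was therefore among the stronger ones in replicate 2 and near the end of the top 2796 in replicate 1. The other 8 pooled summits of the region had signals between 21.1 and 73.3. In the 1000 bp upstream of the gene the pooled list had a single summit, at -937 bp, with a signal of 21.1 (rank 23384).

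ech-6 encodes the enoyl-CoA hydratase of the second step. On chromosome III it runs from 9751552 to 9752883 on the minus strand, 791 bp from vps-53. Its IDR summit was at -225 bp in the intergenic stretch, with a signal of 133.8 (rank 1545). Replicate 1 gave 63.1 (rank 2004) and replicate 2 gave 71.7 (rank 1492), with summits at -226 and -225 bp. Position and rank thus differed little between the replicates. A second pooled summit at -986 bp had 73.3 and was not in the IDR list.

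hach-1 encodes the hydrolase that frees 3-hydroxypropionate from its CoA. It lies on chromosome III from 5555450 to 5557318 on the plus strand and shares its upstream stretch of 515 bp with nmad-1, which is transcribed the other way. Its promoter summit, at -305 bp, had the highest pooled signal of the 5 enzymes, 186.8 (rank 904). Replicate 1 gave 55.6 (rank 2496) and replicate 2 gave 131.8 (rank 477). In replicate 1 the promoter signals of ech-6 (63.1), hphd-1 (61.6) and alh-8 (56.5) were higher. The 5' end of nmad-1 was nearer to it, at 211 bp, and both promoter windows held it, so the summit cannot be given to hach-1 alone.

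A second hach-1 region summit, at -2085 bp, had almost the same signal, 175.4 (rank 1009). It lay in no promoter window, 1230 bp from the nearest 5' end, that of F09F7.6. Matched by the nearest replicate summit, its replicate ranks were the most unequal of the 12 IDR summits, 3138 (signal 48.7) in replicate 1 and 516 (signal 128.2) in replicate 2. The third, at -2984 bp, had 108.9 (rank 2122) and lay in the promoter window of F09F7.6. Replicate signals there were 59.8 and 49.2, with ranks 2196 and 2779. The 2 outer summits thus lay closer to other genes than to hach-1.

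hphd-1 encodes the dehydrogenase that oxidises 3-hydroxypropionate to malonic semialdehyde. It spans 12994354 to 12996571 of chromosome II on the minus strand, has 4 annotated coding 5' ends and lies 349 bp from Y38F1A.7. Its IDR summit, with a signal of 139.3 (rank 1459), was in an intron at 163 bp, 25 bp upstream of one of the internal 5' ends, at 188 bp. Replicate 1 gave 61.6 (rank 2089) at 153 bp. Replicate 2 had a pair of covering peaks, with 56.1 (rank 2234) at 106 bp and 95.5 (rank 915) at 305 bp. The pooled summit fell between them.

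alh-8 encodes the malonic semialdehyde dehydrogenase that ends the shunt at acetyl-CoA. The gene spans 11729055 to 11731198 of chromosome II on the plus strand, 513 bp from F13D12.5. Its IDR summit at -190 bp was the weakest of the 5 enzymes in the pooled list, with a signal of 105.1 (rank 2252). Replicate 1 gave 56.5 (rank 2404) at -174 bp and replicate 2 gave 63.9 (rank 1808) at -265 bp. In replicate 1 the promoter signals of hach-1 (55.6) and acdh-1 (54.0) were lower. The gene had the fewest pooled summits of the 8, and the other 4 had signals from 23.7 to 35.8.

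**Figure D2:**
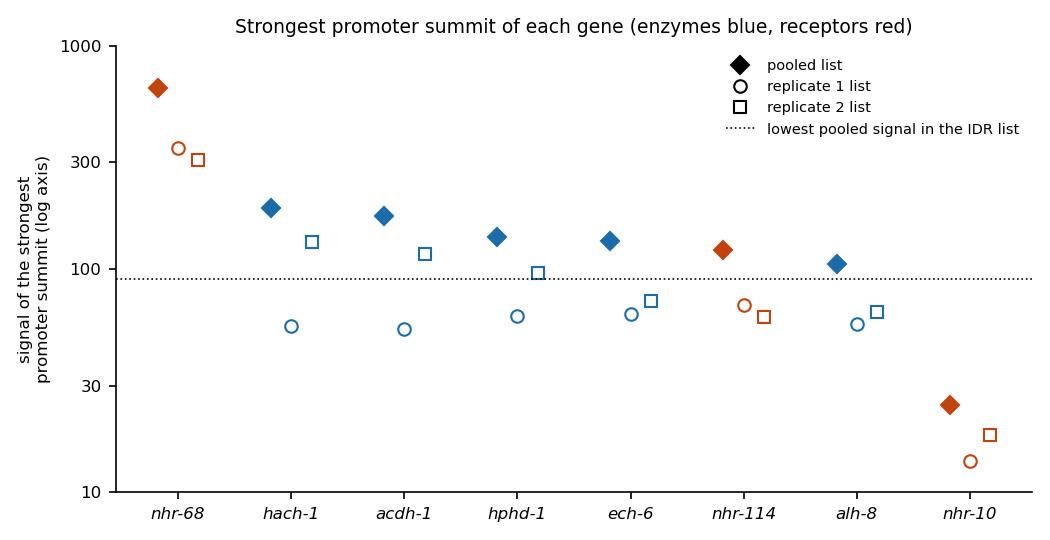
Signal of the strongest promoter summit of each gene on a log axis, in the pooled list (filled diamonds) and the lists of replicate 1 (open circles) and replicate 2 (open squares), enzymes in blue and receptors in red. Levels are comparable within a list only; nhr-68 is highest and nhr-10 lowest in each of the 3 lists.

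nhr-68 encodes the receptor that acts downstream of NHR-10 on the shunt genes. It lies on chromosome V from 11573440 to 11575709 on the plus strand, 449 bp from the divergent gene H12C20.7. Its strongest summit, at -401 bp, held rank 81 in the pooled list, rank 78 in replicate 1 and rank 86 in replicate 2. The summits of the replicates were at -399 and -401 bp, so both position and rank agreed closely. Of all protein-coding genes, 0.270% had a promoter signal at least as high. The summit lay 49 bp from the 5' end of H12C20.7 and in both promoter windows, so it cannot be given to nhr-68 alone.

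The same peak interval held a second IDR summit at -200 bp, 201 bp away and nearer to nhr-68 than to H12C20.7. Its signal was 94.6 (rank 2631), and the strong summit had 6.85 times as much. The replicates placed summits there too, at -198 bp with 52.5 (rank 2773) and at -200 bp with 39.6 (rank 4083). The third IDR summit of the region, at -3308 bp, had 99.6 (rank 2425) and lay in the promoter windows of nhr-101, a further nuclear receptor gene, and pms-2, which encodes a DNA mismatch repair protein. It fell in the 5' untranslated region of pms-2.

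Among other genes, tatn-1, which encodes tyrosine aminotransferase, and tos-1 had the promoter summits most like that of nhr-68 in the log2 signals of the 2 replicates. The distance was 0.03 for tatn-1 (signal 657 at -307 bp, on chromosome X) and 0.06 for tos-1 (signal 638 at -107 bp, on chromosome V). Replicate signals were 350.1 and 313.9 for tatn-1 and 337.0 and 299.9 for tos-1, beside 347.3 and 307.9 for nhr-68. With 2 values per gene, this likeness describes signal strength alone.

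nhr-114 encodes the receptor of the methionine cycle genes. It lies on chromosome V from 4187202 to 4190008 on the plus strand, within the antisense gene Y45G5AM.9, an intron of which covers both IDR summits, and the next gene upstream, pid-5, is 5841 bp away. The promoter summit at -516 bp had a signal of 121.3 (rank 1810), with 68.8 (rank 1717) in replicate 1 and 61.1 (rank 1954) in replicate 2. The replicate summits were at -517 and -361 bp. A weaker pooled summit at -316 bp, with 63.2 (rank 4867), was not in the IDR list. The replicate 2 summit lay nearer to it than to the IDR summit, and whether both replicates mark the same site was not tested. A further IDR summit, at 2588 bp in a coding exon near the end of the gene, had 125.0 (rank 1726). It was stronger in replicate 1, at 84.4 (rank 1218), than in replicate 2, at 35.7 (rank 4870) by rank. The 301 bp around the promoter summit were the richest in G and C of the 12, at 47.8%, while the others ran from 28.9 to 40.9% and the median of IDR windows was 39.5%.

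nhr-10 encodes the receptor at the head of the feed-forward loop. The gene spans 7112295 to 7115438 of chromosome III on the minus strand, with 5466 bp to its upstream neighbour B0280.9. Its strongest pooled summit, at -1361 bp, lay outside the promoter window and had a signal of 75.0 (rank 3697) and a -log10 q of 2.83, where every IDR peak had 2.91. The lowest IDR signal was 1.21 times as high. The summit was present in both replicates, with 46.8 (rank 3376) at -1363 bp in replicate 1 and 30.9 (rank 6333) at -1383 bp in replicate 2. Within the gene, 4 weaker pooled summits lay in introns, with signals from 26.6 to 43.0. In replicate 2 the order differed, and intron summits at 1287 bp (35.3, rank 4985) and 556 bp (34.6, rank 5169) were stronger than the upstream one.

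In the nhr-10 promoter window the strongest pooled summit had a signal of 24.6 (rank 19906), and 28.8% of all protein-coding genes had a promoter summit at least as strong. The absence from the IDR list is thus a place below its end for the upstream summit and a far lower rank for the promoter. It does not show that NHR-102 is absent from nhr-10.

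Agreement between the replicates was read from ranks. Of the 12 IDR summits in the regions, 8 fell within the top 2796 peaks of each replicate (66.7%, exact 95% interval 34.9 to 90.1%), and 70.0% of all IDR peaks did. The interval gives counting error only and takes the 12 as independent, which the 2 summits of the nhr-68 promoter peak are not. By the nearest replicate summit, which avoids giving the weak nhr-68 summit the strong peak beside it, the count was again 8, and the share of all IDR peaks was 67.1%. On this matching the ranks of the 12 differed by a median of 1.34-fold, and those of 2737 IDR peaks found in both by 1.47-fold. With the strongest covering peak in place of the nearest, the medians were 1.81 and 1.43, so which is larger turned with the matching.

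By the nearest summit, 8 of the 12 differed by less than 1.5-fold in rank, among them 4 of the 7 enzyme summits. The other 4 were acdh-1 at 174 bp and hach-1 at -305 and -2085 bp, which ranked higher in replicate 2 by 4.25, 5.23 and 6.08 times, and nhr-114 at 2588 bp, which ranked higher in replicate 1 by 4.00 times. The share of all IDR peaks under 1.5-fold was not computed, but their median of 1.47-fold was itself below that bound. With the strongest covering peak, hphd-1 at 163 bp (2.28-fold) and nhr-68 at -200 bp (52.3-fold) also exceeded it. Over all 12, by the nearest summit, 7 ranked higher in replicate 1 and 5 in replicate 2. With the strongest covering peak the counts were 6 and 6. Of the 2737 IDR peaks found in both replicates, 48.1% ranked higher in replicate 2. With 2 replicates and no depth, the size of these differences was not tested.

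**Figure D3:**
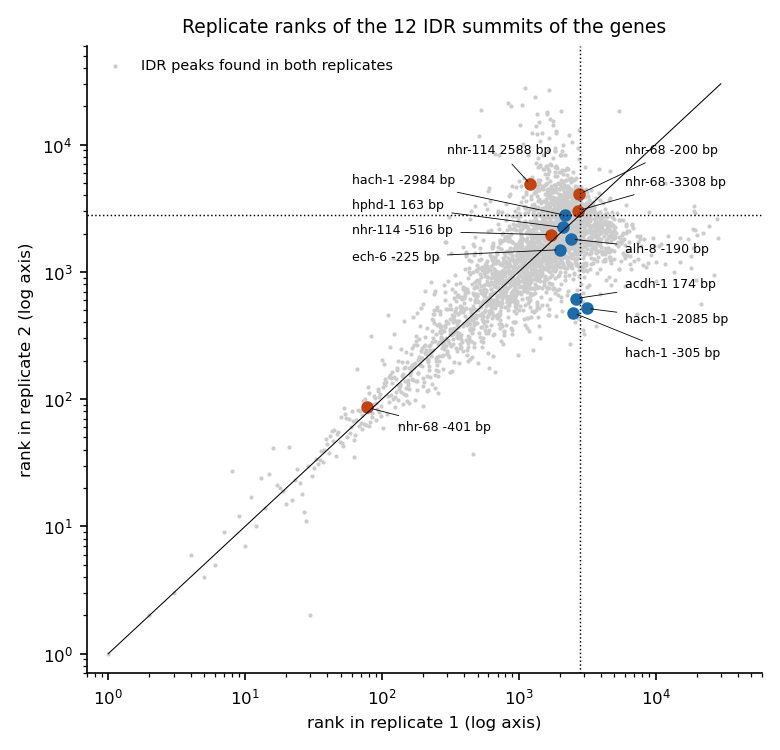
Rank in replicate 1 (horizontal) against rank in replicate 2 (vertical), both on log axes, for 2737 IDR peaks found in both (grey) and the 12 summits of the genes (enzymes blue, receptors red, labelled with the distance from the 5' end), all matched by nearest summit. The dotted lines mark rank 2796; the strong nhr-68 summit lies on the diagonal at ranks 78 and 86, 3 enzyme summits lie well below it and the nhr-114 summit at 2588 bp above.

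Weak summits were frequent around all 8 genes. Each region held between 5 (alh-8) and 11 (hphd-1) pooled summits. All 8 genes thus had 5 or more, as did 24.2% of all protein-coding genes, whose median was 1. The same count was 8 of 8 in each replicate list, where 23.2% of all protein-coding genes reached 5. The cutoff of 5 was chosen after the summits were seen and equals the lowest pooled count of the 8, so 8 of 8 followed from it. The replicate lists are not independent of the pooled list. The regions were of common length, from 6332 to 8144 bp beside a median of 7026 bp. Pooled summits within 50 kb of the genes ran from 0.160 per kb at nhr-114 to 0.630 per kb at hphd-1, and the nuclear genome had 0.299 per kb. More than 1 IDR summit was found for hach-1, nhr-68 and nhr-114, and 5.04% of all protein-coding genes had 2 or more.

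**Figure D4:**
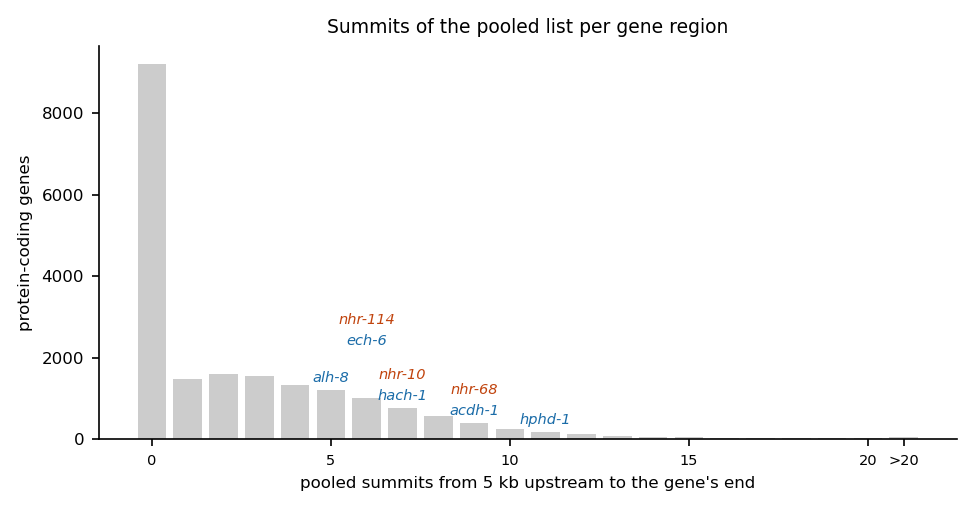
Number of protein-coding genes (vertical) by the number of pooled summits from 5 kb upstream to the gene's end (horizontal), with the 8 genes named above their bar. The 8 lie between 5 and 11, and 9197 genes have 0.

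Of the 12 IDR summits, 9 lay upstream of the outermost 5' end and 8 in a promoter window of the gene itself. The nearest annotated 5' end was that of the gene for 7, and for the others that of F09F7.6, nmad-1, pms-2 or H12C20.7. Peak widths carry little information, since 7 of the 12 peaks, and 59.5% of all IDR peaks, had the same width of 444 bp.

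Of 9 elements searched on both strands within 150 bp of the summits, AGTTCA was found at 5 of the 12 summits (41.7%) and in 15.5% of the 2773 nuclear IDR windows. The 5 belong to acdh-1, ech-6, alh-8 and nhr-68, and the overlapping windows of the nhr-68 pair are not independent. In acdh-1 the centre of the element was 2.5 bp from the summit. Within 50 bp of the summit it was found at 4 of 12, and in 4.83% of IDR windows. The related hexamer AGGTCA was at 0 of the 12 and in 8.44% of IDR windows.

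The GATA site TGATAA was at 5 of the 12 summits and in 36.5% of IDR windows, and GAGAGA at 5 and in 37.4%. CACGTG was at 3 and in 12.3%, TTTTTTTT at 2 and in 20.6%, and the forkhead site GTAAACA at 1 and in 5.48%. AAAGTCC, the core of sites for receptors of the HNF4 type, was at 0 of 12 and in 2.81%, and CGCGCAGG was at 0 and in 0.829%. No matches of different elements overlapped in the 12 windows. These are matches of letters, not shown to be bound, and no match says nothing of a factor.

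Promoter summits at the genes around the shunt were counted in the same way. Of the 7 genes of the B12-dependent route, 1 had an IDR promoter summit, pccb-1, the beta subunit of propionyl-CoA carboxylase, with a signal of 127.2. Of the 13 genes of the methionine and SAM cycle there were 2: ahcy-1, S-adenosylhomocysteine hydrolase, with 191.3, and mthf-1, methylenetetrahydrofolate reductase, with 132.7. The cycle is the known ground of NHR-114. The breakdown of branched-chain amino acids, a source of propionyl-CoA, had 2 of 8, with 270.3 at dld-1 and 265.3 at dbt-1, both subunits of the branched-chain dehydrogenase complex, the former shared with other complexes. These shares, 14.3, 15.4 and 25.0%, stand beside 87.5% for the 8 genes and the 8.95% of all protein-coding genes. They depend on the IDR cut, and their difference was not tested. Some genes counted as without a summit had a pooled promoter summit not far below the lowest IDR signal of 90.5. Examples are mel-32 (84.1), bcat-1 (83.0), bckd-1B (79.8) and mmab-1 (77.7), while nhr-10 had 24.6. Others were far lower, such as cblc-1 (19.6), and sams-5, cbs-2 and acdh-3 had none.

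Lipid regulators had 2 of 5 (40.0%), nhr-49 with 152.8 and nhr-66 with 199.6, the latter at an internal 5' end. The enzyme families of the shunt were counted as well. Apart from acdh-1, 1 of 12 acdh genes had one, acdh-11 (120.9). Apart from ech-6, 2 of 9 ech genes did, ech-5 (104.8, in a window shared with F56B3.11) and ech-1.2 (96.7). Apart from alh-8, 2 of 12 alh genes did, alh-1 (148.8) and alh-3 (100.8, shared with mogs-1). The genes tied to the transgenic strain had none: nhr-102 had no pooled promoter summit, and unc-119 had one of 26.9 only.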

How the data were processed

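Chromatin immunoprecipitation for tagged NHR-102 was sequenced in 2 replicates. Per the file headers and notes deposited with each sample, 1 control was used for both, and the optimal list was derived by IDR from the replicate and pooled lists. The deposited signal (peak strength) and −log10 q were computed by the authors' caller and used as they stand. Which caller, aligner and IDR threshold were used is not given in the sources used here. Since no list holds reads, the depth is unknown.

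Lists in ce11 were read with Python 3.11.15 and numpy 2.4.6, and intervals come from scipy 1.17.1. Genes are from Ensembl release 115 on WBcel235, the same sequence as ce11. Summits were ranked by signal within a list. No test between groups was possible with 1 group, and no test over the genes was made. The 8 genes, the pathway lists and the elements were chosen with earlier results of these data known. Named besides the 8 were up to 4 genes per list with the highest IDR promoter signal, genes sharing or nearest a summit, the 2 genes closest to nhr-68 in replicate signals, nhr-102 and unc-119. The counting was checked on simulated data with planted summits. Alternatives were other windows, lists, matching rules and flanks. Sequence of chromosome I and of untranslated regions is not printed.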

Additional observations from a re-analysis of the deposited data

How the results depend on the processing

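The counts of 7 genes with an IDR summit, in the region and in a promoter window, were also 7 with either replicate list alone (its 2796 strongest peaks). Of all protein-coding genes, 8.65% had such a promoter summit in replicate 1 and 8.40% in replicate 2. The share for the region was not computed there. The 2796 strongest pooled peaks are the IDR peaks themselves and add no check. The full pooled list, added after seeing the data, gave 8 genes for both counts. In that list 34.3% of all protein-coding genes had a promoter summit, and 9197 of 19985 had no summit in the wider region. Both counts of 8 are thus set beside far larger shares than with the IDR list. Leaving out a replicate moved the 12 summits to between 10 and 11. Restricted to the 1398 strongest IDR peaks, 3 genes had a region summit, 3 a promoter summit (acdh-1, hach-1 and nhr-68), and 4 summits were left, by construction of the shorter list. When a summit was given only to the nearest 5' end, 7 of the 12 remained and 6 genes kept one, hach-1 losing all of its own and nhr-68 its strongest (648), which left 94.6 in its promoter. The narrower promoter window (500 bp before to 100 bp after the 5' end) left 6 genes, without nhr-114. Shares of all protein-coding genes were not computed for the nearest-end rule or this window. Neither count of 6 can therefore be set beside 8.95%. The GATA site, tied at the highest count with AGTTCA and GAGAGA, was at 2 summits within 50 bp and at 1 among the strongest peaks. Single ranks moved more: acdh-1 stood at 2624 in replicate 1 and 617 in replicate 2, and the strongest hach-1 summit, which was a different one in replicate 1, at 2196 and 477. Matching by the nearest summit and the count of 5 or more pooled summits were added after seeing the data. No paired analysis was possible because there is 1 group. Precision rests on 2 replicates of unknown depth.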
